A study of Mus musculus with 48 samples.

Results

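Glucocorticoid targets and corticosteroid receptors were examined as a set of 10 genes: the receptor genes Nr3c1 and Nr3c2, the receptor cochaperone gene Fkbp5, and Sgk1, Tsc22d3, Ddit4, Nfkbia, Cdkn1a, Mt1 and Mt2. Members were all probe sets whose gene symbol in the platform annotation is one of these names. A probe set is a group of short oligonucleotides on the array that together report 1 transcript. Of 12422 probe sets that are not array controls, 11 name a member, and they cover 9 of the 10 genes, with 2 probe sets each for Nfkbia (101554_at and 104149_at) and Cdkn1a (94881_at and 98067_at). The single probe sets are 98818_at for Nr3c1, 94297_at for Fkbp5, 94212_at for Tsc22d3, 97890_at for Sgk1, 103460_at for Ddit4, 93573_at for Mt1 and 101561_at for Mt2. The level of Nr3c2, the mineralocorticoid receptor gene, was not analysed here.

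The values come from 48 one-colour Affymetrix arrays of mouse brain, 26 of hippocampus and 22 of amygdala, in 3 arms labelled NH, CS and FC. Hippocampus had 10 NH, 8 CS and 8 FC arrays, and amygdala had 10 NH, 6 CS and 6 FC arrays. The labels give the arms as letters alone. With the series title, on associative and nonassociative learning, NH was read as naive home cage, CS as the conditioned stimulus alone and FC as fear conditioning. The sources used here state no strain, age, sex or time of sampling, and they name no genotype or drug for any arm. The labels leave unsaid whether the arrays of an arm stand for separate animals. The p-values therefore refer to the spread between these arrays, which may be technical. Every array carries a processing batch. Batch 7 of hippocampus and batch 1 of amygdala held 6 NH arrays each and no other arm, and batch 5 of hippocampus held 4 CS and 4 FC arrays and no NH. Levels are log2 of the deposited intensity, so a difference of 1 doubles the signal. Differences between arms were fitted in limma with the batch as a block, so each difference from NH rests on the 4 NH arrays per tissue that shared a batch with CS or FC. CS minus NH and FC minus NH share those NH arrays.

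Glucocorticoids, corticosterone in the mouse, are released from the adrenal gland during stress and bind a pair of nuclear receptors. The mineralocorticoid receptor has the higher affinity and is abundant in hippocampus, and the glucocorticoid receptor binds when hormone levels rise. The bound glucocorticoid receptor enters the nucleus and acts on response elements in DNA. Its classical targets include Fkbp5, which restrains the receptor in turn, Tsc22d3 and Nfkbia, which dampen inflammatory signalling, the kinase gene Sgk1, the mTOR inhibitor gene Ddit4, the cell cycle inhibitor gene Cdkn1a and the metal-binding metallothioneins. Most of these genes also answer to other signals, such as metals for the metallothioneins, hypoxia and energy stress for Ddit4, and p53 for Cdkn1a.

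Promoter sequence was searched for the letters of the hormone's response element and of the metal response element core, because these are the elements best known for these genes. RefSeq windows of 300 bases (GRCm38.p6, from 250 bases before to 50 bases after an annotated start) were searched on both strands. The members had 17 windows, which belong to 9 of the 10 genes including Nr3c2. The full palindromic element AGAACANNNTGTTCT was found in 1 member window, 1 of 6 annotated starts of Sgk1, and in 3 of 32851 windows of all genes (0.00913%). Its hexamer AGAACA, which each full element also contains, was found in 4 of the 17 member windows and in 19% of all windows. The metal response element core, TGCACNC or TGCGCNC, was found in 6 of the 17 member windows and in 25.7% of all windows. Mt2 held 4 such matches and Mt1 held 3, and 1.97% of all windows held 3 or more. The 3 windows are shown because they hold the full hormone element and the metal cores, with the matches in capitals. Sgk1 is chr10:21993640-21993939, Mt2 is chr8:94172368-94172667 and Mt1 is chr8:94178839-94179138, all on the + strand and written 5′ to 3′.
Sgk1: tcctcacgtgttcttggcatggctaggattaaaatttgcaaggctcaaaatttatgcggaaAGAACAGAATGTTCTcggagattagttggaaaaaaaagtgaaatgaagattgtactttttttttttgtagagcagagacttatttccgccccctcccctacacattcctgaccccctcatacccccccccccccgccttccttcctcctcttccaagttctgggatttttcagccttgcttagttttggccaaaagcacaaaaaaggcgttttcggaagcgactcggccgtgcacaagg
Mt2: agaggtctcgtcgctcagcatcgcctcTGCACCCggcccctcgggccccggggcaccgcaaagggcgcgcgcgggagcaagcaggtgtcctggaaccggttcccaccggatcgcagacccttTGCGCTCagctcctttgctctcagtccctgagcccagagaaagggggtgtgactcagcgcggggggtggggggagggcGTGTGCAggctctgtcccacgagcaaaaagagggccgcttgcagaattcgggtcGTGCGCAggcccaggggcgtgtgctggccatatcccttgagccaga
Mt1: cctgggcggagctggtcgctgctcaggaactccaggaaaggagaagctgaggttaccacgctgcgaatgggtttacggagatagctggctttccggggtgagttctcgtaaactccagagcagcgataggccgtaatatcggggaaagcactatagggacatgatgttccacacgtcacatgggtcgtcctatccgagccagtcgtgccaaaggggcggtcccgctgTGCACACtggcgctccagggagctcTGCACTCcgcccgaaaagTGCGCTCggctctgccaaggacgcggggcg
A match of letters is a description and does not show that a factor binds there. Sgk1 is annotated at chr10:21882184-21999903. Its element lies at chr10:21993701-21993715, at position -189 from the start of that window's transcript. The metal cores begin at -23, 2 and 20 in the Mt1 window and at -223, -128, -50 and 4 in the Mt2 window, the last pair on the other strand. Mt2 (chr8:94172618-94173567) ends 5315 bases before Mt1 (chr8:94178883-94180327) begins, so the pair are neighbours on chromosome 8.

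The other members are annotated, in the same build, at chr18:39410545-39519421 for Nr3c1, chr17:28398753-28486149 for Fkbp5, chrX:140539528-140600522 for Tsc22d3 and chr10:59949675-59951770 for Ddit4. Nfkbia is at chr12:55489409-55492647 and Cdkn1a at chr17:29090979-29100722. The platform annotation used here gives no position for the probes within a gene.

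The members spanned nearly the whole range of signal on the arrays. The median intensity of an array was 76.5 to 80.8 for hippocampus but 52.3 to 56.1 for amygdala. Levels were therefore set against each other between tissues only as a percentile of the probe sets within each array. Mt1 averaged the percentile 99.0 in the hippocampus arrays and 98.4 in the amygdala arrays, and Mt2 averaged 98.8 and 97.8. Nr3c1 lay at 18.7 and 15.9, below the filter that left out the 40% dimmest probe sets of a tissue. The other 8 probe sets lay between 53.6 and 82.7 in hippocampus and between 55.5 and 80.6 in amygdala. These percentiles order probe signals and not amounts of transcript, since probes differ in how well they bind.

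Between the tissues, Fkbp5 and Mt2 were the 2 probe sets of 11 whose percentiles did not overlap. How many of all probe sets lack overlap was not computed, so this count and those of the markers below are descriptions alone. Fkbp5 lay between 80.5 and 84.7 in the hippocampus arrays and between 73.2 and 78.4 in the amygdala arrays. For Mt2 the ranges were 98.4 to 99.2 and 97.5 to 98.3. Sgk1 had the largest shift in mean percentile, 71.6 in hippocampus and 55.5 in amygdala, but its ranges of 61.4 to 81.6 and 50 to 68.4 overlapped. The tissue labels were checked against marker genes. Of 10 genes of hippocampal neurons, 5 had non-overlapping percentiles with hippocampus the higher, among them Neurod6 (82.2 and 35.0) and Prox1 (38.3 and 11.5), while Wfs1 and Calb1 ran the other way. Of 6 genes of amygdala and piriform neurons, Penk, Tac2 and Cdh13 were the higher in amygdala without overlap, Rspo2 was the lower, and Sim1 was dim in both tissues (2.97 and 3.63).

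No member passed the test in any comparison between arms. In limma, with p-values adjusted by Benjamini and Hochberg over all 7453 probe sets tested in a tissue and a threshold of 0.05, 0 of 10 tested member probe sets were called in hippocampus CS minus NH (background 0.0134% of all probe sets called), FC minus NH (0.0134%), FC minus CS (0%) and in the mean of CS and FC minus NH (0.0134%). In amygdala 0 of 10 were called in CS minus NH (0.0134%), FC minus NH (0.0939%), FC minus CS (0%) and in the mean of CS and FC minus NH (0.0939%). At an unadjusted p below 0.05, in the same order, 1, 1, 0 and 1 of the 10 passed in hippocampus and 2, 1, 0 and 2 in amygdala. Among all probe sets, the unadjusted shares were 1.45%, 2.27%, 0.765% and 2.07% in hippocampus and 3.92%, 5.15%, 1.23% and 5.85% in amygdala. With so few calls among all probe sets, the members' count of 0 is near the background and is no result about the members.

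The members' differences from NH were small and mostly positive. In hippocampus 8 of 10 were positive in CS minus NH, with a median log2 difference of 0.05 where the median of all probe sets was 0.00, and 7 of 10 in FC minus NH, with a median of 0.03 against 0.00, where 50.5% and 49.7% of all probe sets were positive. In amygdala 8 of 10 were positive in both, with a median of 0.11 in CS and 0.09 in FC against 0.01 and 0.01 over all probe sets, of which 53.8% and 55.2% were positive. A 95% interval that left out 0 in the mean of CS and FC against NH was found for 3 probe sets: Ddit4 in hippocampus, and Sgk1 and Nfkbia probe set 104149_at in amygdala.

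**Figure D1:**
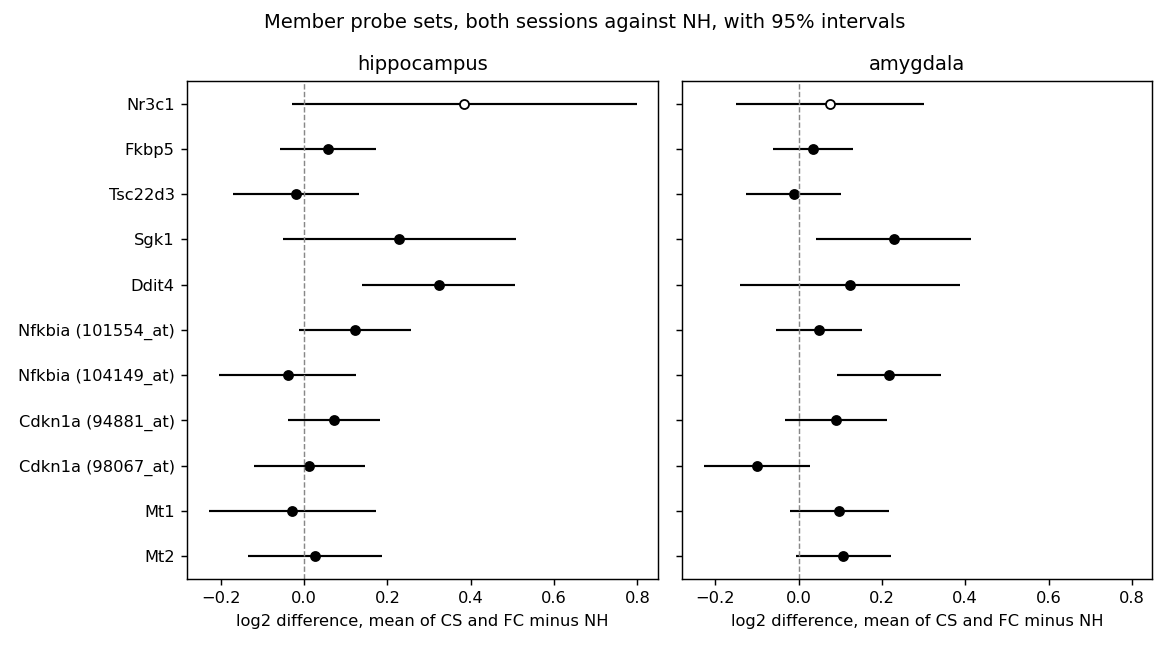
Log2 difference of the mean of CS and FC from NH for the 11 member probe sets in hippocampus (left) and amygdala (right), fitted in limma with batch as a block. Points are the fitted differences, lines are 95% intervals, and the open point is Nr3c1, which lay below the filter. Ddit4 in hippocampus (0.32) and Sgk1 (0.23) and Nfkbia 104149_at (0.22) in amygdala lie clear of 0, and no probe set passed after adjustment.

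Nr3c1 encodes the glucocorticoid receptor, and its probe set was dim and variable. In hippocampus its log2 level ranged from 3.51 to 4.91 (median 4.37) in NH, from 3.41 to 4.97 (median 4.68) in CS and from 4.09 to 4.92 (median 4.51) in FC. The arms overlapped over most of this range. Fitted with all 12422 probe sets, the mean of CS and FC minus NH was 0.38 ± 0.202 (SE; 95% interval -0.03 to 0.80; limma, adjusted p = 1), with 0.61 in batch 4 and 0.12 in batch 6. In amygdala the ranges were 3.33 to 3.93 in NH, 3.14 to 4.08 in CS and 3.18 to 4.09 in FC, and the difference was 0.07 ± 0.11. A dim probe set measures a change poorly, and no difference of Nr3c1 was resolved at this spread.

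Fkbp5, the cochaperone that lowers the receptor's affinity for hormone and is commonly used as a readout of receptor activity, was the steadiest member in amygdala. In hippocampus its NH level was 7.96 ± 0.0455 (SD, n = 10), and the means of CS and FC were 7.97 ± 0.101 and 7.96 ± 0.099 (SD, n = 8 each). In amygdala its NH level was 7.04 ± 0.0626 (SD, n = 10), and CS and FC averaged 7.14 ± 0.0786 and 7.08 ± 0.0802 (SD, n = 6 each). Within batches the mean of CS and FC minus NH was 0.06 in hippocampus, with a 95% interval from -0.06 to 0.17, and 0.03 in amygdala, from -0.06 to 0.13. The residual SD is the spread around the fitted arm and batch terms, and it includes any difference between arms that changed from batch to batch. For Fkbp5 it was 0.084 in hippocampus and 0.0693 in amygdala, where the median over all probe sets was 0.113 and 0.105.

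Tsc22d3 encodes the glucocorticoid-induced leucine zipper, a protein that binds and inhibits inflammatory transcription factors. Its differences lay next to 0 in both tissues. In hippocampus the mean of CS and FC minus NH was -0.02 (95% interval -0.17 to 0.13) and in amygdala -0.01 (-0.13 to 0.10). Without regard to batch its hippocampal mean was 6.78 ± 0.158 (SD, n = 10) in NH, above the CS and FC means of 6.62 ± 0.132 and 6.65 ± 0.0669 (SD, n = 8 each). By batch, the NH mean was 6.83 in batch 7, which held no other arm, 6.70 in batch 4 and 6.72 in batch 6, and in batches 4 and 6 CS averaged 6.64 and 6.83 and FC 6.72 and 6.65. Batch 5, without NH, had the lowest means, 6.55 in CS and 6.62 in FC. The NH arrays of batch 7 differed from the other NH arrays by 0.12 ± 0.0907 (limma, adjusted p = 0.988).

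Ddit4 encodes REDD1, which restrains the growth kinase complex mTORC1 under stress, and it had the smallest p of the members in hippocampus. In batch 4 the NH arrays read 7.19 and 7.40, the CS arrays 7.43, 7.63 and 7.87, and the FC arrays 7.61 and 7.62. In batch 6 the NH arrays read 7.33 and 7.45, the CS array 7.50, and the FC arrays 7.70 and 7.87. Within each batch the lowest of the CS and FC arrays, 8 in all, read higher than the highest NH array. The fitted difference was 0.29 ± 0.097 (SE) for CS, 1.22-fold, and 0.36 ± 0.0958 for FC, 1.28-fold. For the mean of both arms it was 0.32 ± 0.0892 (95% interval 0.14 to 0.51), 1.25-fold, with 0.34 in batch 4 and 0.30 in batch 6. None of these passed (limma, adjusted p = 1 for CS, 0.839 for FC and 0.772 for the mean; unadjusted p = 0.00673, 8.66e-04 and 0.00124). Ddit4 stood 7th by p among the 7453 probe sets in FC minus NH and 12th for the mean of both arms. Leaving out any 1 array kept the latter difference between 0.27 and 0.36. Pan-neuronal markers had 6 of 9 probe sets positive in the same contrast, with a median of 0.12, and their mean level ranged from 8.60 to 9.37 in NH, from 8.63 to 9.44 in CS and from 9.01 to 9.41 in FC. After the fitted arm and batch terms were removed, Ddit4 correlated at a median r of 0.13 with 8 pan-neuronal markers and 0.37 with 6 oligodendrocyte markers. The median r with all probe sets was 0.07. The part of either list in the Ddit4 values was not tested.

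The hippocampal batches themselves differed in Ddit4 by as much as the arms did. The 6 NH arrays of batch 7 read from 6.68 to 7.05 (median 6.94), and each lay below every other hippocampus array. They averaged 6.92 against 7.34 in the 4 other NH arrays, a difference of -0.42 ± 0.0795 that did not pass (limma, adjusted p = 0.0822). In that contrast 0 of 10 members and 0.107% of all probe sets were called. An unadjusted p below 0.05 was found for 3 of 10 members and for 4.74% of all probe sets. In batch 5 the CS arrays read 7.09, 7.31, 7.35 and 7.39 and the FC arrays 7.11, 7.30, 7.37 and 7.65. The batch 5 means were lower than those of batch 4, at 7.29 against 7.64 in CS and 7.36 against 7.62 in FC. A fit without the batch term, which takes in batches 5 and 7, gave 0.40 for the mean of both arms (adjusted p = 0.0672).

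In amygdala the interval of Ddit4 included 0, from -0.14 to 0.39 around 0.12 for the mean of both arms minus NH. Its residual SD of 0.252 lay at the 99th percentile of all probe sets there. The 4 FC arrays of batch 2 read 6.13, 6.79, 6.91 and 7.26, spanning the whole range of the tissue, while the 3 NH arrays of that batch read 6.72, 6.78 and 6.81. CS minus NH was 0.16 ± 0.144 and FC minus NH 0.08 ± 0.142, and the latter ran from -0.02 without FC replicate 2103113 to 0.23 without FC replicate 23543. The difference between the tissues in the mean of both arms minus NH was -0.20 ± 0.164 (amygdala minus hippocampus; 95% interval -0.53 to 0.13) and did not pass.

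Sgk1 encodes a kinase that serum and glucocorticoids induce and that acts on ion channels and transporters. Its hippocampal values split by batch. In batch 4 the NH arrays read 7.21 and 7.48, the CS arrays 7.26, 7.29 and 7.45, and the FC arrays 7.23 and 7.35, so the arms overlapped. In batch 6 the NH arrays read 6.86 and 7.13, the CS array 7.09, and the FC arrays 7.59 and 7.91, so both FC arrays lay above the other 3 arrays of the batch. FC minus NH was -0.05 in batch 4 and 0.76 in batch 6, and over both batches 0.28 ± 0.146 (95% interval -0.02 to 0.58; limma, adjusted p = 1). That value was 0.15 without FC replicate 55 and 0.40 without NH replicate 111. With batch 6 alone, 2 FC against 2 NH arrays, Sgk1 passed (limma, adjusted p = 0.0213). Batch 5 held no NH, and its CS arrays read 7.33, 7.35, 7.56 and 7.84 and its FC arrays 7.21, 7.27, 7.72 and 7.74. FC minus CS was -0.04 in batches 4 and 5 and 0.66 in batch 6, where it rests on 1 CS array, and 0.11 ± 0.112 overall.

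In amygdala Sgk1 was above NH in both session arms by similar amounts. In batch 2 the NH arrays read 5.78, 5.95 and 6.11, the CS arrays 6.09, 6.12 and 6.67, and the FC arrays 5.96, 6.14, 6.22 and 6.33. In batch 3 the NH array read 5.90, the CS arrays 5.91, 5.96 and 6.11, and the FC arrays 6.00 and 6.06. In each of the CS and FC arms 5 of 6 arrays read higher than all NH arrays of the same batch, and the remaining arrays fell between NH arrays. CS minus NH was 0.26 ± 0.102 and FC minus NH 0.20 ± 0.0998, and the mean of both was 0.23 ± 0.0901 (95% interval 0.04 to 0.41; limma, unadjusted p = 0.0182, adjusted p = 0.825). The differences in batches 2 and 3 were 0.28 and 0.10. CS replicate 23139, the array at 6.67, carried much of the CS value, which was 0.14 without it, and without NH replicate 28892 FC minus NH was 0.13. With array weights, which trust noisy arrays less, Sgk1 passed in FC minus NH at 0.21 (adjusted p = 0.0365), and so did 911 of all probe sets.

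**Figure D2:**
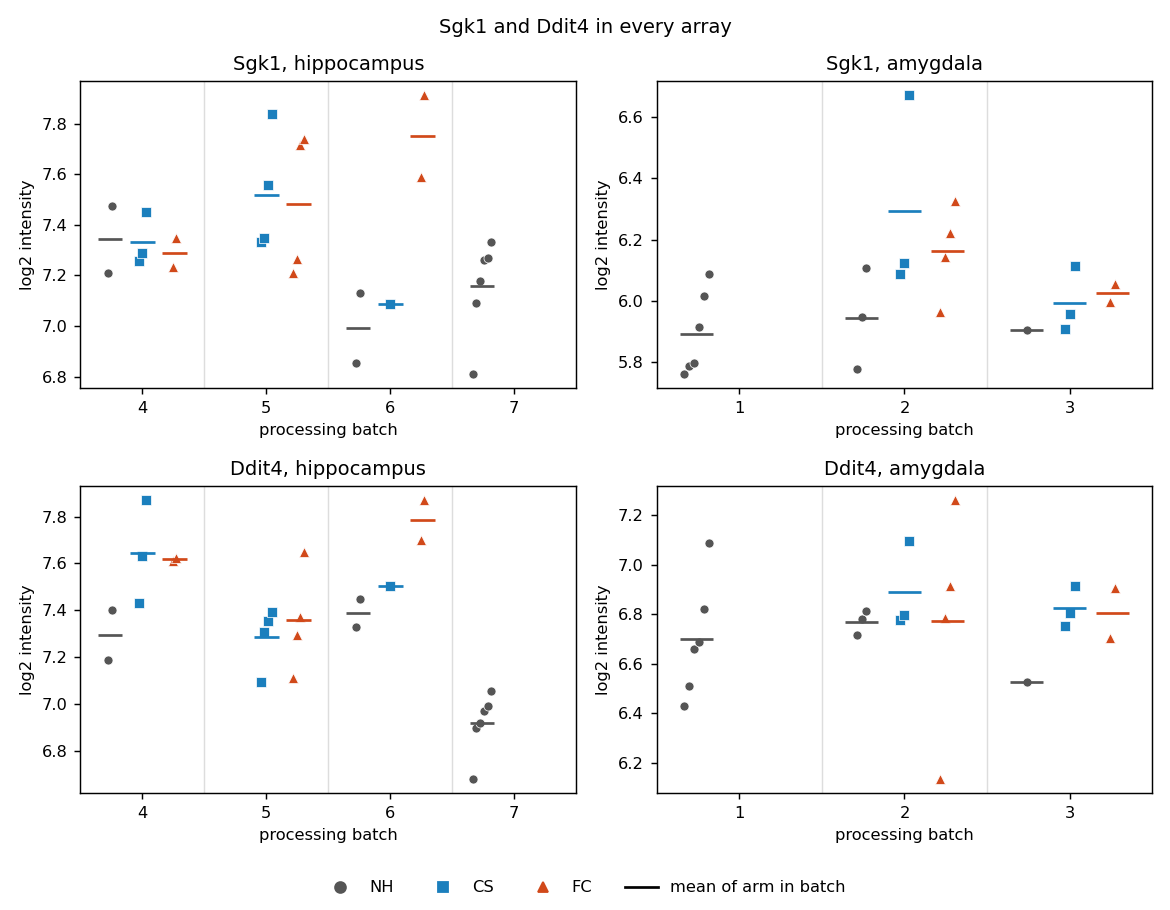
Log2 intensity of Sgk1 (top) and Ddit4 (bottom) in every hippocampus (left) and amygdala (right) array, by processing batch and arm; bars are the mean of an arm in a batch and the axes differ between panels. Ddit4 lies lowest in the 6 NH arrays of hippocampal batch 7 (6.68 to 7.05), the FC arrays of batch 6 stand apart for Sgk1 (7.59 and 7.91), and amygdala CS replicate 23139 reads 6.67 for Sgk1.

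Sgk1 is expressed in oligodendrocytes as well as neurons, and oligodendrocyte markers were mostly positive in amygdala as well. Of the 9 oligodendrocyte probe sets tested there, which name 5 genes, 8 were positive in the mean of CS and FC minus NH, with a median of 0.16 against 0.01 over all probe sets, and none was called. Averaged over 8 oligodendrocyte genes, the list's level ranged from 6.50 to 6.73 in NH, from 6.44 to 6.76 in CS and from 6.56 to 6.76 in FC, so the arms overlapped. In hippocampus 8 of 11 probe sets were positive, with a median of 0.02. Pan-neuronal markers had 8 of 9 probe sets positive in amygdala, with a median of 0.08. In bulk tissue more cells of a type and more RNA per cell cannot be told apart, and the part of either list in the Sgk1 values was not tested.

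Sgk1 also varied strongly around the fitted arm and batch terms. Its residual SD was 0.245 in hippocampus, at the 97.5th percentile of all probe sets, and 0.171 in amygdala, at the 91.5th. Sgk1 had unlike FC minus NH in hippocampal batches 4 (-0.05) and 6 (0.76), and the residual SD takes these in. After the fitted arm and batch terms were removed, its residuals correlated with those of 6 oligodendrocyte markers at a median r of 0.47 over 26 hippocampus arrays, where the median r with all probe sets was 0.11, and with 5 such markers at 0.26 over 22 amygdala arrays, against -0.03. Fkbp5 (0.49) and Mt1 (0.50) had as high a median r with the oligodendrocyte list in hippocampus. In amygdala the median r of Sgk1 was 0.37 with hippocampal neuron markers, 0.29 with pan-neuronal markers and -0.43 with blood markers. The probe set most like Sgk1 in hippocampus was that of the sorting nexin Snx4 (r = 0.80), and Snx4 was also like it in amygdala (r = 0.82). Dhx40 (0.80) and Lrrn1 (0.79) followed in hippocampus but had r of 0.10 and 0.48 in amygdala, where Itm2b (0.92), Usp33 (0.91) and Minpp1 (0.91) came first. These correlations describe values from the same arrays, which share RNA quality and hybridisation.

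Nfkbia encodes the inhibitor that holds NF-kappaB in the cytoplasm, and its 2 probe sets differed in amygdala, mainly in batch 2. The difference between them was not tested. For probe set 104149_at in amygdala, the NH arrays of batch 2 read 5.80, 5.95 and 6.06, the CS arrays 6.00, 6.28 and 6.29, and the FC arrays 6.08, 6.11, 6.26 and 6.31. In batch 3 the NH array read 5.94, the CS arrays 5.98, 6.04 and 6.10, and the FC arrays 6.08 and 6.12. The FC arrays (6 of 6) and CS arrays (5 of 6) read higher than all NH arrays of the same batch. CS minus NH was 0.20 ± 0.0681, 1.15-fold, and FC minus NH 0.23 ± 0.0669, 1.17-fold. The mean of both was 0.22 ± 0.0604 (95% interval 0.09 to 0.34), with 0.26 in batch 2 and 0.12 in batch 3, and it did not pass (limma, unadjusted p = 0.00147, adjusted p = 0.521). It ran from 0.16 without NH replicate 299141 to 0.25 without NH replicate 3142153. With array weights it passed at 0.20 (adjusted p = 0.033), as did 75 of all probe sets.

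The other Nfkbia probe set, 101554_at, had a smaller mean of CS and FC minus NH in amygdala, at 0.03 in batch 2 and 0.10 in batch 3. Its CS minus NH was 0.01 ± 0.0562, its FC minus NH 0.09 ± 0.0552 and the mean of both 0.05 ± 0.0498 (95% interval -0.05 to 0.15). It was the brighter of the pair in both tissues, at a mean percentile of 73.9 against 55.6 in amygdala. The residuals of the 2 probe sets correlated at r = 0.36 over 22 amygdala arrays and 0.58 over 26 hippocampus arrays. Which parts of the transcript each reports was not examined here.

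In hippocampus neither Nfkbia probe set had a difference clear of 0. Probe set 104149_at differed by -0.04 ± 0.0803 in the mean of CS and FC minus NH, with -0.17 in batch 4 and 0.12 in batch 6, while 101554_at differed by 0.12 ± 0.0654, with -0.01 in batch 4 and 0.28 in batch 6. The difference between tissues was tested in a joint fit that takes all 48 arrays as independent. The labels do not state whether hippocampus and amygdala samples came from the same animals or whether animals were pooled. The replicate numbers allow such a reading. Amygdala NH replicate 16364, in batch 1, can be read as that batch digit followed by hippocampus NH replicates 63 and 64. Amygdala CS replicate 21523, in batch 2, can likewise be read with hippocampus CS replicates 15 and 23. Not every amygdala number matches in this way. The joint fit did not model shared animals, and its SE and p-values rest on the assumption of independence. In this fit 0 of 10 members were called in CS minus NH, FC minus NH, FC minus CS or the mean of both arms minus NH (background 0% of 7242 probe sets in each). Among all probe sets, in the same order, 2.53%, 3.42%, 1.37% and 3.44% had an unadjusted p below 0.05. The members passing at that level were 0, 1, 0 and 1, and both were Nfkbia 104149_at. Its amygdala minus hippocampus value was 0.30 ± 0.111 in FC minus NH (adjusted p = 0.981) and 0.26 ± 0.102 in the mean of both arms minus NH (adjusted p = 0.993).

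**Figure D3:**
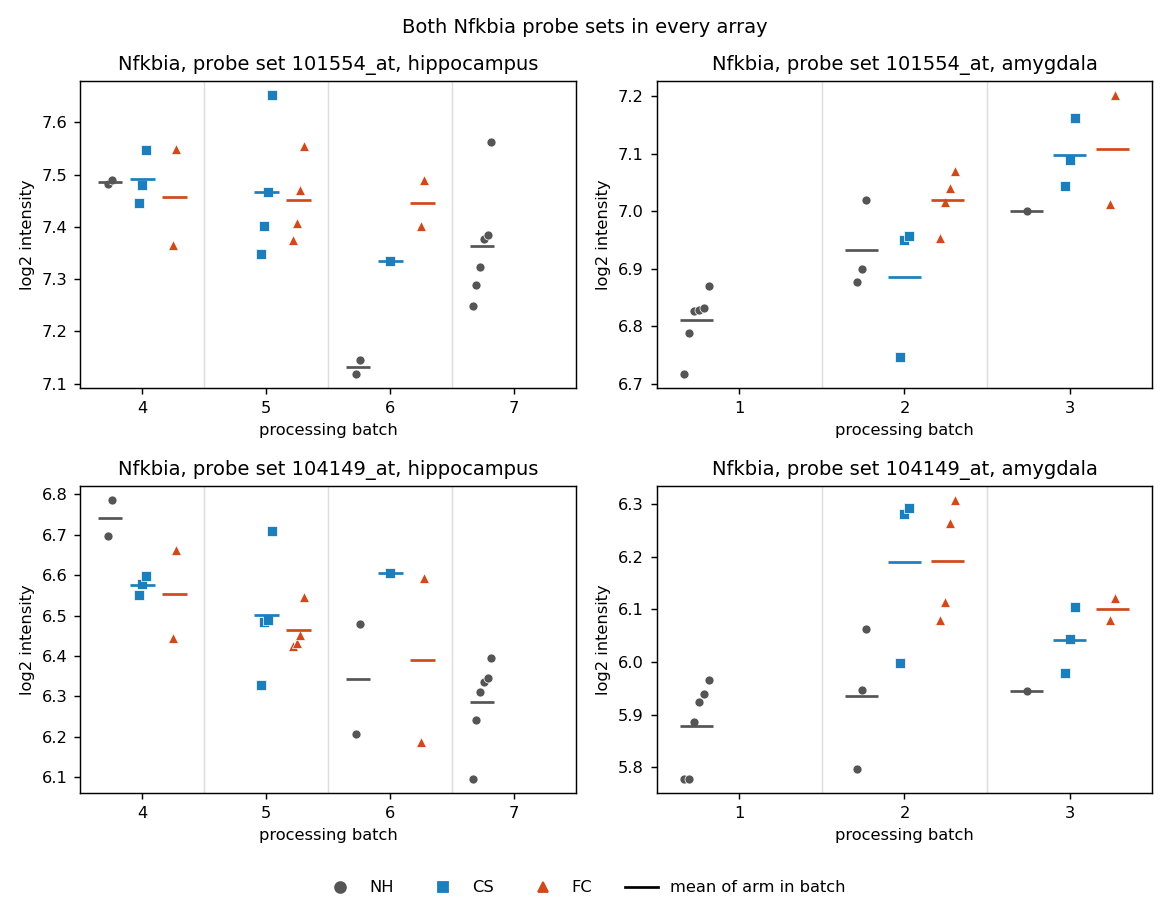
Log2 intensity of Nfkbia probe sets 101554_at (top) and 104149_at (bottom) in every hippocampus (left) and amygdala (right) array, by processing batch and arm; bars are the mean of an arm in a batch and the axes differ between panels. In amygdala 104149_at lies higher in FC than in NH within batches 2 and 3, by 0.26 and 0.12 for the mean of both session arms, while 101554_at differs by 0.03 and 0.10.

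Nfkbia is transcribed in microglia and vessels as well as neurons, and microglial markers were compared for that reason. In amygdala 6 of 10 microglial probe sets were positive in the mean of CS and FC minus NH, with a median of 0.06, and none was called. Averaged over 9 genes, the microglial level ranged from 6.96 to 7.09 in NH, from 7.02 to 7.16 in CS and from 7.06 to 7.17 in FC. The residuals of Nfkbia 104149_at had a median r of 0.00 with 8 microglial markers in amygdala and 0.23 in hippocampus, against 0.04 and 0.05 over all probe sets. With 8 pan-neuronal markers the median r was 0.29 in amygdala and -0.0046 in hippocampus. With endothelial and mural markers it was -0.19 and 0.05. Of 9 endothelial and mural probe sets 4 were positive in amygdala, with a median of -0.03. The part of these cells in the Nfkbia values was not tested.

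Cdkn1a encodes p21, an inhibitor of cyclin-dependent kinases, and its 2 probe sets were examined separately. In amygdala neither passed. Probe set 94881_at differed by 0.12 ± 0.0669 in CS minus NH, from 0.07 without NH replicate 299141 to 0.21 without NH replicate 3142153. In FC minus NH it differed by 0.06 ± 0.0657, and without the same arrays by 0.00 and 0.14. Probe set 98067_at, the brighter one, differed by -0.11 ± 0.069 and -0.09 ± 0.0678. For the mean of both arms minus NH the pair had opposite signs in batch 2 (0.17 for 94881_at and -0.12 for 98067_at) and were both negative in batch 3 (-0.12 and -0.04), which has 1 NH array. In hippocampus both lay near 0, at 0.07 (95% interval -0.04 to 0.18) and 0.01 (-0.12 to 0.15) in the mean of both arms minus NH. The residuals of 98067_at were most like those of the growth factor gene Igf1 (r = 0.90 in 26 hippocampus arrays and 0.81 in 22 amygdala arrays), Bcl2 (0.87 and 0.75) and Ltbp3 (0.87 and 0.74). In amygdala Tnni1 (0.91), Sstr4 (0.90) and Limk1 (0.89) came first. They opposed those of Sgk1 in amygdala (r = -0.74) and of Mt1 in hippocampus (r = -0.64).

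Mt1 and Mt2 encode small cysteine-rich proteins that bind zinc and copper, and in brain they are made mainly by astrocytes. In amygdala both were slightly above NH within batches. For Mt1 the NH arrays of batch 2 read 9.98, 10.05 and 10.17, the CS arrays 10.12, 10.13 and 10.32, and the FC arrays 10.04, 10.06, 10.13 and 10.39. In batch 3 the Mt1 NH array read 9.945, the CS arrays 9.97, 10.00 and 10.07, and the FC arrays 10.05 and 10.09. The mean of CS and FC minus NH was 0.10 ± 0.0576 for Mt1 (95% interval -0.02 to 0.22) and 0.11 ± 0.0556 for Mt2 (-0.01 to 0.22), and neither passed (limma, adjusted p = 0.825 for both). In batches 2 and 3 the difference was 0.10 and 0.09 for Mt1 and 0.11 and 0.10 for Mt2. Without FC replicate 2103113, FC minus NH was 0.05 for Mt1 and 0.04 for Mt2.

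In hippocampus the metallothionein differences had opposite signs in the 2 batches with NH. In batch 4 the Mt1 NH arrays read 10.94 and 10.96, above 4 of the 5 CS and FC arrays (10.61 to 11.06), and in batch 6 they read 10.55 and 10.62 while the CS array read 10.90 and the FC arrays 10.49 and 10.78. The mean of CS and FC minus NH was -0.17 in batch 4 and 0.13 in batch 6 for Mt1, and -0.03 ± 0.0975 over both. For Mt2 it was -0.03 and 0.09, and 0.03 ± 0.0782 over both. The 95% interval of Mt1, -0.23 to 0.17, is for a difference fitted as common to all batches. It does not bound a difference that changes with batch.

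The NH arrays run alone in batch 1 of amygdala stood apart for Mt1 and not for Mt2. For Mt1 these 6 arrays read 9.62, 9.63, 9.67, 9.68, 9.69 and 9.83, below every other amygdala array. They averaged 9.69 against 10.04 in the 4 other NH arrays, a difference of -0.35 ± 0.0596 (limma, adjusted p = 0.00429). Mt2 differed by -0.00 ± 0.053. Mt1 was the 1 member of 10 called in this contrast, which compares batches and not arms, and 7.38% of all probe sets were called in it. An unadjusted p below 0.05 was found for 2 of 10 members and for 25% of all probe sets. In hippocampus Mt1 was lower in batch 7 as well, by -0.22 ± 0.0925 (adjusted p = 0.988). In a fit without the batch term Mt1 passed in amygdala FC minus NH at 0.30 (adjusted p = 0.0422), where 0.10 remained within batches.

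**Figure D4:**
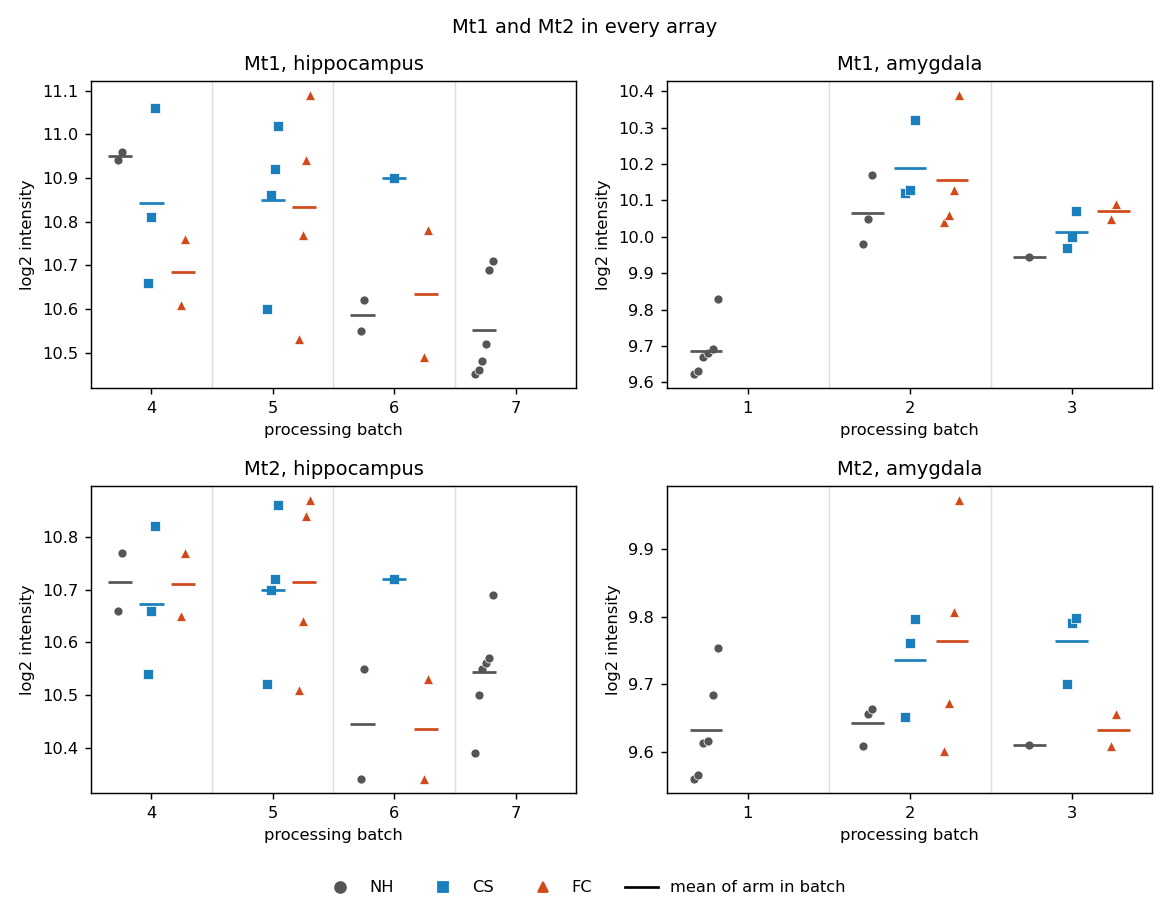
Log2 intensity of Mt1 (top) and Mt2 (bottom) in every hippocampus (left) and amygdala (right) array, by processing batch and arm; bars are the mean of an arm in a batch and the axes differ between panels. The 6 NH arrays of amygdala batch 1 lie lowest for Mt1 (9.62 to 9.83), while for Mt2 2 of them lie below all other arrays and the rest among them.

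Around the fitted arm and batch terms, which leave in any difference between arms that changed with batch, Mt1 and Mt2 varied together. Over 26 hippocampus arrays their residuals correlated at Pearson's r = 0.76 (Spearman's rho = 0.81), and at r = 0.70 without the 2 arrays farthest from the median of Mt1. Over 22 amygdala arrays r was 0.58 (rho = 0.36) and was 0.34 without 2 such arrays, so there it rests largely on them. Of 7452 other probe sets Mt1 ranked 2nd in likeness to Mt2 in hippocampus and 8th in amygdala, while Mt2 ranked 19th and 111th in likeness to Mt1. Whether the probes of one also bind the transcript of the other, a close paralog, was not tested. Among other genes Utp4 (r = 0.84) was most like Mt1 in hippocampus and Stmn2 (0.75) in amygdala, with Gstm1 next in amygdala (0.74, and 0.70 in hippocampus).

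**Figure D5:**
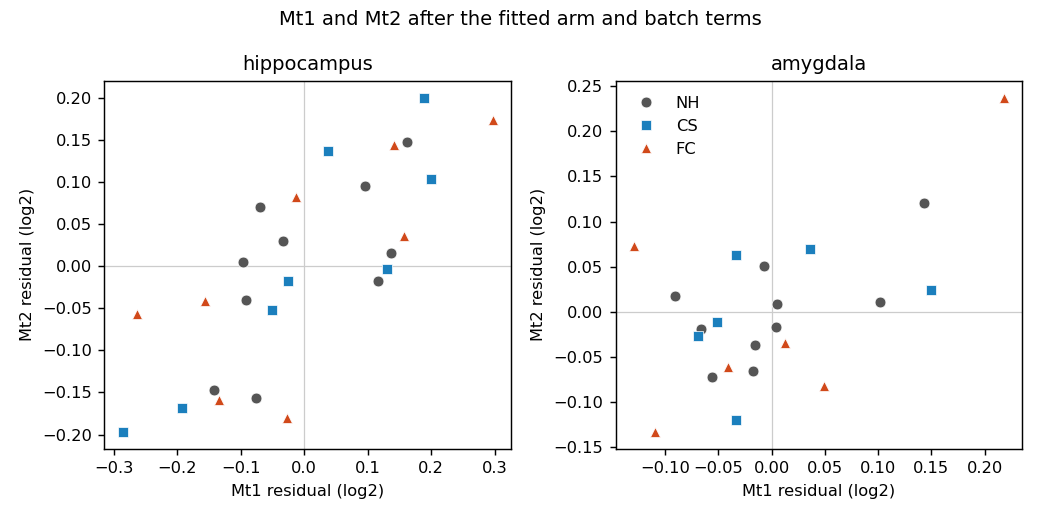
Residual log2 intensity of Mt2 against that of Mt1 in each hippocampus (left, 26 arrays) and amygdala (right, 22 arrays) array after the fitted arm and batch terms were removed; symbols mark the arm and the axes differ between panels. The points rise together in hippocampus (r = 0.76), and in amygdala the relation (r = 0.58) leans on FC replicate 2103113 at the upper right.

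Astrocyte markers were examined beside the metallothioneins. Of 15 astrocyte probe sets in amygdala 7 were positive in the mean of CS and FC minus NH, with a median of -0.01, and the level averaged over 11 genes ranged from 8.45 to 8.54 in NH, from 8.40 to 8.56 in CS and from 8.40 to 8.58 in FC. The residuals of Mt1 had a median r of 0.34 with 11 astrocyte markers in hippocampus and 0.18 in amygdala, against 0.11 and 0.07 over all probe sets. Its median r was higher with oligodendrocyte (0.50) and microglial (0.43) markers in hippocampus, and with pan-neuronal (0.27) and microglial (0.23) markers in amygdala. For Mt2 with astrocyte markers the values were -0.05 and 0.06, against 0.04 and 0.02. The part of astrocytes in the metallothionein values was not tested.

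FC and CS were not told apart by any member. In hippocampus the FC minus CS differences ran from -0.09 (Mt1) to 0.11 (Sgk1) among the 10 tested probe sets, and the interval of Sgk1 was -0.12 to 0.34. In amygdala they ran from -0.08 (Ddit4, interval -0.35 to 0.18) to 0.08 (Nfkbia 101554_at, interval -0.02 to 0.18). Every one of these probe sets had an interval that included 0 in both tissues. These intervals bound the differences and do not show that the arms were alike.

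Other genes of the pathway were taken from 8 lists, which leave out the members. Of 29 probe sets for 21 other glucocorticoid-responsive genes in amygdala, 2 rose in FC minus NH and in the mean of both arms minus NH, and none fell. In each of these contrasts 0.0939% of all probe sets were called. The list was chosen with earlier results of these data known. Dusp1, a phosphatase that inactivates MAP kinases, rose by 0.54 ± 0.0818 in FC (limma, adjusted p = 0.00151), and Gadd45g, a stress sensor, by 0.30 ± 0.0543 (adjusted p = 0.0195). Both genes also respond quickly to neuronal activity, so they are not markers of the hormone alone. The list's median in the mean of both arms was 0.04 with 17 of 29 probe sets positive, where the median of all probe sets was 0.01. In hippocampus 0 of 31 probe sets were called, the median was 0.03 with 19 positive, and Dusp1 differed by 0.38 ± 0.0762 (limma, adjusted p = 0.112).

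The 7 remaining lists had no call in any comparison. In the mean of both arms minus NH, receptor chaperones and coregulators had a median of -0.01 in hippocampus and 0.04 in amygdala over 22 probe sets. The list of hypothalamic-pituitary-adrenal peptides and receptors had 4 of 6 probe sets positive in hippocampus and 1 of 6 in amygdala. In the NF-kappaB pathway 7 of 14 and 5 of 13 were positive, so the other genes of the pathway had no common direction beside Nfkbia 104149_at. The mTOR list around Ddit4 had 7 of 17 positive in hippocampus, with a median of 0.00, and 12 of 17 in amygdala, with 0.04. Metal and metallothionein genes had 4 of 15 positive in hippocampus, with a median of -0.02, and 9 of 15 in amygdala, with 0.01. The p53 and cell cycle inhibitor genes had 10 of 12 and 9 of 12, among them the antiproliferative gene Btg2 at 0.10 ± 0.0493 in hippocampus and 0.16 ± 0.0501 in amygdala (limma, adjusted p = 1 and 0.825).

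None of the genes with the smallest p in these 7 lists passed. Relatives and targets of SGK had 6 of 9 probe sets positive in hippocampus and 7 of 9 in amygdala, where Ndrg1, whose protein SGK1 phosphorylates, differed by 0.12 ± 0.049 and the transcription factor gene Foxo3 by 0.13 ± 0.0663. Foxo3 differed by 0.11 ± 0.0685 in hippocampus. In amygdala Hsd11b2, whose enzyme inactivates corticosterone, differed by -0.12 ± 0.0529 and the coactivator gene Crebbp by 0.12 ± 0.0537. The kinase gene Mtor differed by 0.13 ± 0.0685 in amygdala and by -0.08 ± 0.0607 for another of its probe sets in hippocampus. The NF-kappaB adaptor gene Traf6 differed by -0.12 ± 0.0557 and the ferritin gene Fth1 by -0.13 ± 0.0603 in amygdala. Among the other glucocorticoid-responsive genes, Glul, which encodes glutamine synthetase and marks astrocytes, had a large but variable difference in hippocampus (0.49 ± 0.195; limma, unadjusted p = 0.0174, adjusted p = 1).

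Likeness among the other members was described in the same way, from residuals after the arm and batch terms. Fkbp5 residuals correlated with those of Sgk1 at r = 0.60 over 26 hippocampus arrays and 0.49 over 22 amygdala arrays. Fkbp5 and Ddit4 were correlated in hippocampus (r = 0.68) and less in amygdala (0.21). The correlations of Tsc22d3 were negative with Fkbp5 (-0.23 and -0.57) and with Sgk1 (-0.49 and -0.35), although glucocorticoids induce all 3 genes in many tissues. Outside the set, Fkbp5 was most like Usp38 in hippocampus (r = 0.80) and Lpin2 in amygdala (0.86), and Tsc22d3 was most like Ppat (0.85) and Tk1 (0.86). Ddit4 was most like Psmc3 in hippocampus (0.80) and the small GTPase gene Rhoa in amygdala (0.89), with r of 0.32 and 0.15 in the other tissue. Nfkbia 101554_at was most like Nicn1 (0.74) in hippocampus and Rbm14 (0.72) in amygdala. All these values come from the same arrays and carry no test.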

How the data were processed

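RNA of 26 hippocampus and 22 amygdala samples was hybridised to one-colour Affymetrix arrays. The deposited values are linear intensities per probe set, which the authors made with RMA per the submitters' processing notes (background correction, normalization and summary of probes; its version is not known here). Of 12488 probe sets in the file 66 are array controls, and 10833 of the rest name 1 gene. Array medians of intensity differ between the tissues, so each tissue was fitted alone and a joint fit was used for the difference between tissues only. The number of arrays limits the precision.

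Intensities were put on the log2 scale. Per tissue, a filter on the mean level removed the dimmest 40% of probe sets and kept 7453. Arms plus batch were fitted with lmFit and eBayes (limma 3.58.1, R 4.3.3). P-values were adjusted by Benjamini and Hochberg over all probe sets tested, with a threshold of 0.05. Arms and batches were taken from the labels. Correlations between arrays were 0.982 to 0.999 in hippocampus and 0.987 to 0.998 in amygdala. The fits were tested on simulated data. Alternatives changed the filter, batch term, variance model, scaling, array weights, arrays and batches used.

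Members and gene lists were chosen with earlier results of these data known. Named genes are the members, list genes that passed the test, the 2 with the smallest p in each list and tissue (not all are printed), and the 3 probe sets most like the brightest probe set of each member in a tissue. Nr3c1 was fitted without the filter. Gene positions and promoter windows are from RefSeq on GRCm38.p6, which matched 10 of 10 members. Figures were drawn with matplotlib 3.10.9 in Python 3.11.15.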

Additional observations from a re-analysis of the deposited data

Results flagged for a closer look

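In 2 of 66 groups of a member probe set, tissue and arm, 1 array stood apart by the gap to its neighbour relative to the group's whole range, where chance marks about 1 in 20 groups. Sgk1 read 6.67 in amygdala CS replicate 23139, the highest of 6 CS arrays, with the next at 6.12 and a gap of 0.717 of the range. That array ranked 2nd of 22 amygdala arrays in the mean level of the astrocyte, oligodendrocyte and pan-neuronal marker lists. Mt1 read 10.4 in amygdala FC replicate 2103113, the highest of 6 FC arrays, with the next at 10.1 and a gap of 0.746 of the range. That array ranked 1st of 22 in the astrocyte and microglia lists, and its residuals were 0.24 for Mt2 and 0.46 for Ddit4. The part of those markers in either reading was not tested.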

How the results depend on the processing

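The count of member probe sets called was 0 in each of the 12 comparisons, and it stayed 0 with any 1 array left out (lowest 0, highest 0). The following settings gave calls. Without the batch term 2 were called in amygdala FC minus NH (Nfkbia 104149_at at 0.26 and Mt1 at 0.30, among 211 of all probe sets) and 3 in the mean of CS and FC minus NH (both Nfkbia probe sets, 0.15 and 0.24, and Mt1 at 0.29, among 692); this setting takes in the NH arrays of batch 1. With array weights 2 were called in amygdala FC minus NH (Sgk1 and Nfkbia 104149_at, among 911) and 1 in the mean (Nfkbia 104149_at, among 75); the cause was not tested. In batch 6 alone 1 was called in hippocampus FC minus NH (among 4) and 1 in FC minus CS (among 38), Sgk1 both times, on 5 arrays. No filter, a 60% filter (under which Nfkbia 104149_at was tested in neither tissue, Sgk1 not in amygdala and Tsc22d3 not in hippocampus), batch as a random block, trended and robust variance, a second quantile normalization, an offset of 16, only the arms compared, and batches 2, 3, 4 and 5 alone gave 0 member calls, as did leaving out batch 7 or batch 1, which was chosen after seeing the data. Calls over all probe sets in CS minus NH, FC minus NH and the mean of both were 1, 1 and 1 in hippocampus, and 7, 7 and 12 without the batch term, 1, 4 and 4 with batch as a random block, 1, 3 and 2 with array weights and 0 in each with the 60% filter. In amygdala CS minus NH had 1, and 17, 4, 5 and 0 under those settings. No paired analysis of arms within a tissue was possible because no replicate number is shared by 2 arms of a tissue. Pairing between the tissues was not modelled, since the labels do not state which samples share animals. Signal over background limits Nr3c1, and 4 NH arrays per tissue limit every difference from NH.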
